A study of Bos taurus with 6 samples.

Results

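The miR-30 family is a group of closely related microRNAs (miRNAs), here measured in bovine muscle precursor cells with and without resveratrol (RSV), a plant polyphenol. Its members were taken by name, as every miRNA of the deposited table called bta-miR-30 with a letter from a to f, with or without an arm suffix. This gave 7 of the 765 miRNAs of the table, namely bta-miR-30a-5p, bta-miR-30b-5p, bta-miR-30b-3p, bta-miR-30c, bta-miR-30d, bta-miR-30e-5p and bta-miR-30f. The cells were primary myoblasts isolated from fetal beef longissimus dorsi muscle, which are dividing muscle precursors that fuse into fibers. In the RSV group, 3 cultures received 20 μM resveratrol dissolved in DMSO, and in the control group 3 cultures received DMSO alone. Both groups stood in differentiation medium, for 4 days according to the description of the experiment. The study's methods give 3 independent experiments per group and do not state how many fetuses the cells came from, so p-values measure the spread between these samples only.

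A miRNA is cut from a hairpin precursor, and its strands are named 5p and 3p after the arm they come from. One strand is usually kept in an Argonaute protein, where its bases 2 to 8, the seed, pair with messenger RNAs and lower their stability or translation. The main strands of miR-30 hairpins lie on the 5p arm and share a seed, so they can bind an overlapping set of messengers, whereas the 3p strand of miR-30b has another sequence. The family is known for restraining SNAI1 and connective tissue growth factor, and in muscle for favouring the differentiation of myoblasts, partly through TNRC6A, a partner of Argonaute. Because the 5p strands differ from each other at few positions, reads with trimmed ends or sequencing errors may have been counted for a relative, and the split between members is uncertain to that extent.

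The deposited table gave a mean normalized read count per group for each miRNA, that is, reads divided by a size factor for the depth of each library and then averaged over the group. No value of a single culture was given, so most values below are the authors' group means without SD. The normalized means summed to 6637955 in RSV and 7340618 in DMSO over all 765 miRNAs. Of the 6 muscle miRNAs found, bta-miR-206 had 127629 normalized reads in RSV and 139464 in DMSO, and bta-miR-1, bta-miR-133a and bta-miR-133b lay between 5550 and 30883 in both groups. The other muscle miRNAs were low, with bta-miR-499 at 115 in RSV and 46.1 in DMSO and bta-miR-208b at 30.5 and 32.5. Markers of other cell types were mostly low: the sum of the 5 blood miRNAs found was 798 in RSV and 667 in DMSO. The main exceptions were bta-miR-143 and bta-miR-145, miRNAs of smooth muscle and fibroblasts, which summed to 380087 and 390970. The neuronal marker bta-miR-9-5p stood above the blood sum, at 1109 in RSV and 1097 in DMSO. The other neuronal miRNA found, bta-miR-124a, was nearly absent, at 0.356 in RSV and 3.44 in DMSO. Most of the blood sum was bta-miR-486, at 558 in RSV and 572 in DMSO, and its cells of origin were not tested. In such bulk samples, fewer cells of a type and less RNA per cell cannot be told apart.

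The members covered a wide range of levels, and their order was the same in both groups. The most abundant was bta-miR-30a-5p, with a mean of 38732 normalized reads in RSV and 36317 in DMSO, which placed it at rank 19 and rank 21 of all miRNAs. Next came bta-miR-30d with 24641 normalized reads in RSV and 27360 in DMSO. These leading members held 46.3% and 29.5% of the family's normalized reads in RSV, and 43.1% and 32.4% in DMSO.

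The middle of the order was taken by bta-miR-30e-5p, with 10449 normalized reads in RSV and 11212 in DMSO, and by bta-miR-30c, with 6286 and 5903. Below them, bta-miR-30b-5p had 2010 normalized reads in RSV and 2183 in DMSO. The least abundant member of the 5p type, bta-miR-30f, had 1423 and 1339. The 3p strand of miR-30b stood far below the rest, at 34.0 normalized reads in RSV and 24.3 in DMSO. Neighbours in this order were further apart than any of the 6 abundant members differed between the groups. The group means do not give the libraries' spread for the 6 most abundant members, and per-sample miRNA values of the paper's supplement were not used. The order was therefore not tested.

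**Figure D1:**
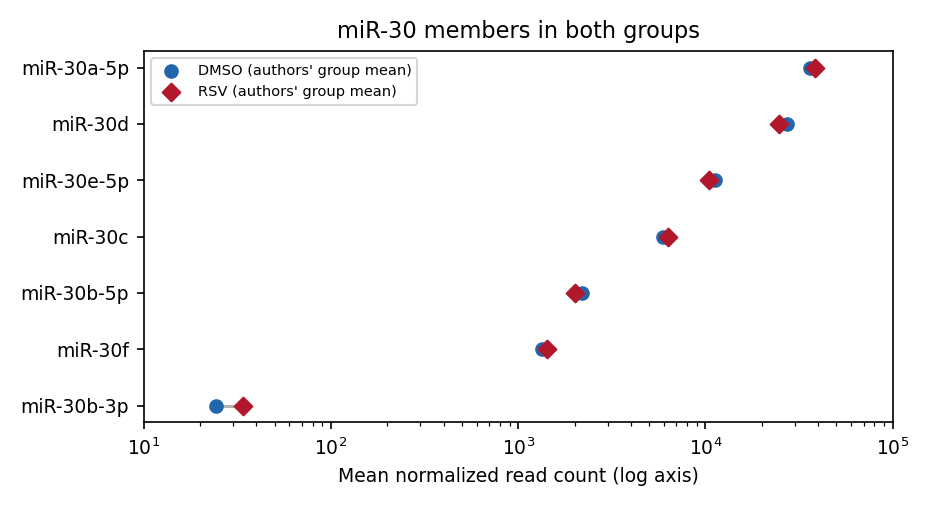
Mean normalized read count (log axis) of the 7 miR-30 members in the RSV group (diamonds) and the DMSO group (circles), as the authors' group means without error bars. The symbols of each member nearly overlap, except for bta-miR-30b-3p at 34.0 against 24.3 normalized reads.

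The first question was whether the family as a whole differed after RSV. The summed means of the 7 members were 83575 normalized reads in RSV and 84340 in DMSO, a log2 ratio of −0.01. Of the 7 members, 4 were higher in RSV, and 3 were lower. Over the 391 miRNAs whose mean reached 10 normalized reads, 51.7% were higher and 48.3% lower, so that the members' shares were near those of all miRNAs. The median log2 ratio was 0.09 over the 7 members and −0.01 over the 6 without bta-miR-30b-3p, against 0.00494 over the 391 miRNAs.

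Members above and below the line differed by similar amounts. The log2 ratio of RSV to DMSO was 0.09 for bta-miR-30a-5p, 0.09 for bta-miR-30c and 0.09 for bta-miR-30f, which correspond to ratios of 1.07, 1.06 and 1.06. It was −0.15 for bta-miR-30d, −0.12 for bta-miR-30b-5p and −0.10 for bta-miR-30e-5p, with ratios of 0.901, 0.921 and 0.932. These 6 members thus parted into 3 with ratios between 1.06 and 1.07 and 3 with ratios between 0.901 and 0.932.

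A size of 1.2-fold was used to describe larger differences, since group means allow no test. None of the 6 abundant members reached it, and bta-miR-30b-3p did. In either direction, 34.0% of the 391 miRNAs with a mean of 10 or more and 23.3% of the 146 with a mean of 1000 or more were past 1.2-fold. A log2 ratio at least as far from 0 as that of bta-miR-30d was found in 57.5% of the 391 miRNAs, and for bta-miR-30f in 73.4%. Among the 146 miRNAs with a mean of 1000 or more, the shares were 49.3% for bta-miR-30d and 71.9% for bta-miR-30f.

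**Figure D2:**
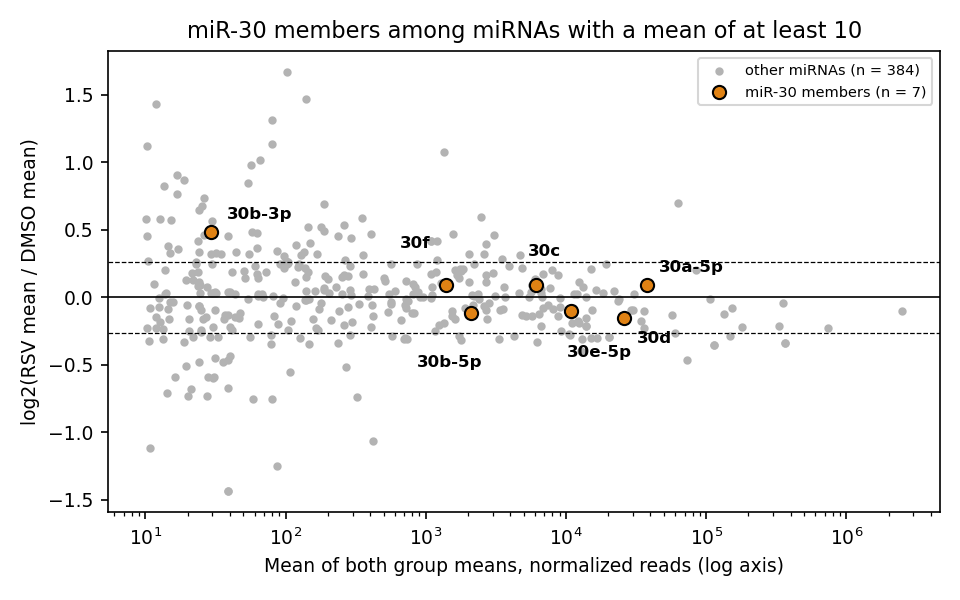
log2 ratio of the RSV to the DMSO group mean (vertical axis) against the mean of both groups in normalized reads (log axis) for 391 miRNAs with a mean of at least 10, with the 7 miR-30 members in orange and 1.2-fold as dashed lines. The 6 abundant members lie between −0.15 and 0.09, inside the dashed lines, and bta-miR-30b-3p lies above them at 0.48.

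How precise these ratios are can be stated for counting error alone. The 95% counting interval of the log2 ratio was 0.08 to 0.11 for bta-miR-30a-5p, −0.17 to −0.14 for bta-miR-30d and 0.02 to 0.15 for bta-miR-30f. All 6 intervals left out 0, but they hold no spread between cultures. That spread was measured in less abundant miRNAs, whose reads in single libraries could be recovered from the digits of the means. For 23 miRNAs with means from 200 to 400 normalized reads, the median SD of log2 normalized reads between libraries was 0.13 in RSV and 0.14 in DMSO, of which counting alone gives 0.08 and 0.10. A difference between groups of 3 libraries with these SDs has a standard error of 0.107. The log2 ratios of the 6 abundant members, from 0.09 to 0.15 in size, were at most 1.41 times that value. That standard error includes counting error, which is smaller for these members, at 0.00618 to 0.0322 for the log2 ratio. The value may therefore be too large for them, and whether these members spread as much between cultures was not tested.

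The direction of some members depended on how the groups were scaled. With the authors' size factors the median miRNA hardly moved, but the summed means gave a log2 ratio of −0.15. The largest part of that sum was bta-miR-21-5p, with 2395745 normalized reads in RSV and 2578774 in DMSO. When each group was scaled by its sum, all log2 ratios rose by the same amount, to 0.24 for bta-miR-30a-5p, 0.24 for bta-miR-30c and 0.23 for bta-miR-30f. Under this scaling bta-miR-30e-5p at 0.04 and bta-miR-30b-5p at 0.03 changed sign, and bta-miR-30d stood at −0.00586. The shift is the same for every miRNA, so 20.2% of the 391 miRNAs changed sign with these members, and 71.9% were then higher in RSV, beside 6 of the 7 members. The family then held 1.26% of all normalized reads in RSV and 1.15% in DMSO.

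**Figure D3:**
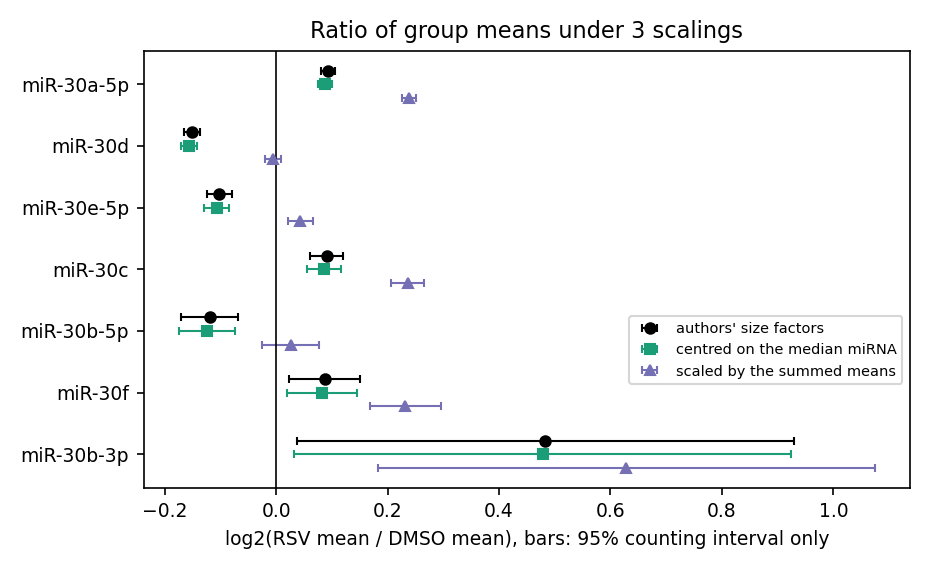
log2 ratio of the RSV to the DMSO group mean for the 7 miR-30 members under the authors' size factors (circles), centring on the median miRNA (squares) and scaling by the summed means (triangles), where bars are 95% counting intervals without the spread between cultures. With the last scaling bta-miR-30e-5p and bta-miR-30b-5p pass from below 0 to 0.04 and 0.03.

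Ratios between members do not change when all libraries of a group are scaled by the same factor, and they can be read against the genes that encode them. They do depend on the size factors of single libraries, and other size factors within a group were not tried for these ratios. In the RefSeq gene table of the assembly ARS-UCD2.0, the family has 3 pairs of neighbouring miRNA genes with no other listed gene between them. MIR30F lies beside MIR30A on chromosome 9, and MIR30D lies beside MIR30B on chromosome 14. The pair of MIR30C and MIR30E on chromosome 3 lies inside NFYC, which encodes a subunit of the transcription factor NF-Y. Neighbouring miRNA genes can be cut from a shared transcript.

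For the pair on chromosome 9, bta-miR-30f had 0.0367 times the level of bta-miR-30a-5p in RSV and 0.0369 times in DMSO. The log2 change of this ratio was −0.00592, with a 95% counting interval from −0.07 to 0.06. For the pair on chromosome 14, bta-miR-30b-5p had 0.0816 times the level of bta-miR-30d in RSV and 0.0798 times in DMSO, a log2 change of 0.03 with a counting interval from −0.02 to 0.08. In both pairs the change was within counting error.

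The pair inside NFYC differed from these. The level of bta-miR-30c was 0.602 times that of bta-miR-30e-5p in RSV and 0.526 times in DMSO, a log2 change of 0.19 with a 95% counting interval from 0.16 to 0.23. This was outside counting error, but the spread between cultures was not measured for it. Among all 15 ratios between the 6 abundant members, the absolute log2 change ran from 0.00206 for bta-miR-30c with bta-miR-30a-5p to 0.244 for bta-miR-30d with bta-miR-30a-5p. The 3 ratios between neighbours ranked 3, 5 and 8 from the smallest change. Small changes were therefore found for neighbours and for members on different chromosomes.

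**Figure D4:**
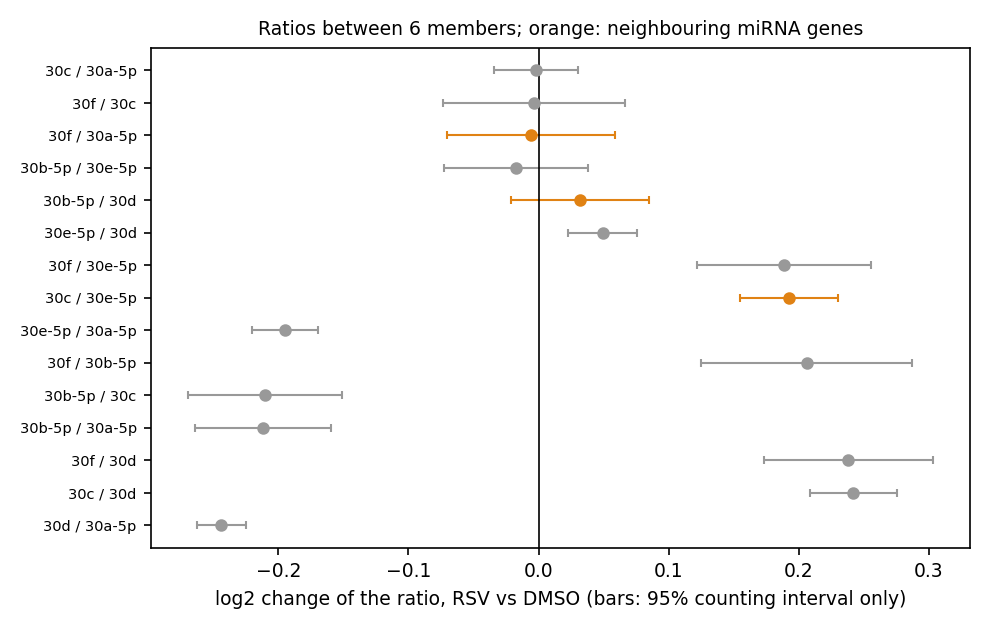
log2 change, RSV against DMSO, of the 15 ratios between the 6 abundant miR-30 members, the less abundant member divided by the more abundant one, with 95% counting intervals as bars and ratios between neighbouring genes in orange. The ratios fall into 6 with changes of at most 0.0493 in size and 9 with changes of at least 0.189. Each change is the difference between the log2 ratios of both members, so this split repeats the one between members higher and lower in RSV.

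The strands of the miR-30b hairpin were the only arms of the family that were both listed. Single libraries were recovered for bta-miR-30b-3p, where 1 combination of whole reads gave each group mean. The libraries carry no replicate number and are named by their size factor. In RSV, the libraries with size factors of 1.54, 1.29 and 0.935 held 54, 41 and 33 reads, or 35.0, 31.7 and 35.3 normalized reads. In DMSO, those with size factors of 0.922, 0.823 and 0.729 held 21, 21 and 18 reads, or 22.8, 25.5 and 24.7 normalized reads. All RSV libraries stood above all DMSO libraries, as did those of 16.8% of the 143 recovered miRNAs with a mean of at least 10. Every RSV size factor was also above every DMSO one, so library depth and treatment cannot be told apart.

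The mean of bta-miR-30b-3p was 34.0 ± 2.01 normalized reads in RSV and 24.3 ± 1.40 in DMSO (SD, n = 3 libraries each), and the difference of 9.68 had p = 0.1 in a two-sided exact permutation test, which cannot go lower with 3 libraries in each group. A limma voom model, which weights log2 counts by their precision, over the 143 miRNAs gave a log2 fold change of 0.47 with a standard error of 0.18. Its unadjusted p was 0.0257 and its Benjamini-Hochberg adjusted p from limma was 0.167, so the difference did not pass the threshold of 0.05. In the same model 3.5% of the 143 miRNAs passed it in either direction, and 0.699% were higher in RSV, that is 1 higher and 4 lower. Among the 4 lower, bta-miR-1814c and bta-miR-2310 had the same log2 fold change of −1.43 and may be counts of the same reads. With the wider set of recovered reads, up to 400 normalized reads, 11 of 206 miRNAs were called higher and 6 lower, and bta-miR-30b-3p had an adjusted p from limma of 0.124. The 128 reads in RSV and 60 in DMSO limit the precision, since counting alone allows a ratio between 1.02 and 1.94.

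Of the 19 miRNAs found that mark other cell types, 12 were higher in RSV (63.2%, beside 51.7% of all miRNAs with a mean of 10 or more). The markers were not limited to a mean of 10, and bta-miR-141 and bta-miR-124a, for example, lay below it. Of the 5 blood miRNAs found, 3 were higher and bta-miR-223 was listed at 0 in RSV. Their sum of 798 in RSV and 667 in DMSO came to 595 and 593 without bta-miR-451, which had 204 normalized reads in RSV and 73.8 in DMSO. Of the 7 epithelial miRNAs 5 were higher, and their sum of 262 in RSV and 160 in DMSO came to 105 and 111 without bta-miR-375. The liver miRNA bta-miR-122 had 88.4 normalized reads in RSV and 43.6 in DMSO. Most of the difference in the blood and epithelial sums thus came from 1 miRNA each. The blood sum without bta-miR-451 was mostly bta-miR-486, at 558 in RSV and 572 in DMSO, whose cells of origin were not tested. That sum says little about rarer blood miRNAs. Of these, bta-miR-142-3p and bta-miR-142-5p had log2 ratios of group means of 2.02 and 0.86, and bta-miR-223 was lower in RSV. For bta-miR-142-5p the limma voom model gave −0.83 with a standard error of 0.93, so its direction is uncertain. The part of other cells in the level of bta-miR-30b-3p was not tested.

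The 5p strand of miR-30b was 59.1 times as abundant as the 3p strand in RSV and 89.8 times in DMSO. The log2 change of this ratio was −0.60, against a median absolute change of 0.20 over the 30 hairpins with both arms at a mean of at least 10. Only miR-21 had a larger absolute change among these, at 0.64. The 3p strand had a mean of 29.2 normalized reads, and the counting standard error of its log2 ratio was 0.23. The next hairpins in rank, miR-193a, miR-2299, miR-2320 and miR-362, also had a low arm, with means from 13.5 to 35.6. At similar levels, miR-2483 (13.4) and miR-380 (34.7) hardly changed. The rank of miR-30b was not tested. Most of the change in miR-30b came from the 3p strand, with a log2 ratio of 0.48, and less from the 5p strand at −0.12.

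**Figure D5:**
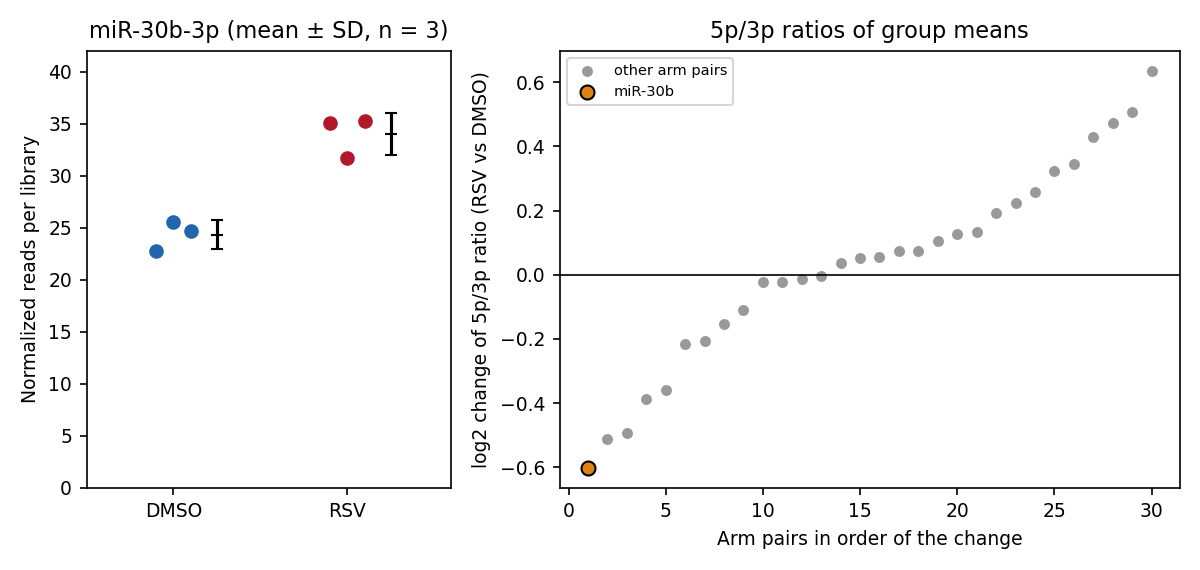
Left, normalized reads of bta-miR-30b-3p in each of 3 DMSO and 3 RSV libraries, with mean and SD beside them. Right, log2 change of the 5p to 3p ratio of group means (RSV against DMSO) for 30 hairpins in ascending order, where miR-30b is the lowest at −0.60.

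The miRNAs nearest to each member in both group means were found by the distance between log2 means over the 2 groups. The nearest to bta-miR-30e-5p was bta-miR-532, with 10314 normalized reads in RSV and 11280 in DMSO, and the nearest to bta-miR-30c was bta-miR-93, with 6357 and 5810. For bta-miR-30f it was bta-miR-1839, at 1402 and 1311, and for bta-miR-30b-5p it was bta-miR-342, at 2125 and 2217. The leading members had no such close neighbour, since bta-miR-125b lay at a log2 distance of 0.16 from bta-miR-30a-5p and bta-miR-379 at 0.20 from bta-miR-30d. The nearest to bta-miR-30b-3p was bta-miR-412, at 35.6 and 24.1 normalized reads.

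Other abundant families were set beside miR-30 without a test. In the let-7 and miR-98 family, which holds a large share of all reads in these cells, 1 of 10 members was higher in RSV and the median log2 ratio was −0.16. In the miR-26 family 0 of 3 were higher, with a median of −0.35, although bta-miR-26a and bta-miR-26c had nearly the same means and may be counts of the same reads. In the miR-23, miR-24 and miR-27 clusters 3 of 8 were higher, with a median of −0.00996. Of the 6 abundant miR-30 members, 3 were higher. Among the 146 miRNAs with a mean of at least 1000, 5 pairs had means within 0.1% of each other in both groups, and 0 of these pairs held a miR-30 member.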

How the data were processed

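Per the paper's methods and the labels, the authors filtered the miRNA reads of 50 bases, mapped them to UMD_3.1.1 (bosTau8) with Bowtie 0.12.9 and named known miRNAs by miRBase. The deposited table holds 1 mean normalized read count per group, made by the authors, and the authors' own log2 fold changes, p-values and calls, which were not used. The authors give no p-value for bta-miR-30e-5p. The mRNA part was not used, since most values had lost their decimal point and its identifiers matched 0 entries of the RefSeq gene table. Genes of miRNA processing were therefore not analysed here.

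Groups came from the sample titles. The members, gene lists and tests were chosen with earlier results of these data known. Named were the members, the nearest miRNA to each in the plane of the log2 group means, the marker miRNAs and 3 other families; bta-miR-21-5p, the 5p to 3p ratios and the ratios between members were added after values had been seen.

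Each mean is a sum of whole reads over 3 size factors, printed with up to 10 significant digits. The size factors were found from the smallest means and refined by least squares. Reads were accepted where 1 combination fitted and fewer than 0.01 were to be found by chance, in the widest of 3 search ranges (no limit, or 50% or 25% from the mean). This gave reads for 517 miRNAs, among them all 511 with means up to 100 normalized reads in both groups, and for 1 member. The 143 recovered miRNAs whose mean reached 10 normalized reads entered a limma voom model (version 3.58.1, under R 4.3.3) with library sizes in proportion to the size factors. Total library depths are not given in the sources used here. The spread at higher levels used miRNAs with exactly 1 combination without a limit, a choice made after seeing the data. That search allowed a narrower tolerance for the fit than the main one. Counting intervals take reads as Poisson, cover counting error only, and for bta-miR-30b-3p are exact Clopper-Pearson limits at 95%. Python 3.11.15 was used for the rest, with scipy 1.17.1, numpy 2.4.6, pandas 2.3.3 and matplotlib 3.10.9.

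In tests on simulated data, the reads of 521 of 585 miRNAs with simulated means up to 400 were recovered, and 521 of these were right. In simulated reads of 392 miRNAs with 200 changed by 2-fold, limma voom called 193 in the right direction and 7 unchanged ones. The simulated set was larger than the set of recovered miRNAs in the main model, and its changes were larger than that of bta-miR-30b-3p. That member had a ratio of 1.40 at a mean of 29.2 normalized reads. How often a difference of this size would be called was not tested.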

Additional observations from a re-analysis of the deposited data

How the results depend on the processing

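Scaling by the summed means moved the median log2 ratio of the 6 abundant members from −0.01 to 0.14 and that of the family total from −0.01 to 0.13, and the members higher in RSV went from 4 to 6 of 7 as the share over all miRNAs with a mean of 10 or more went from 51.7% to 71.9%. Both shifts follow from the log2 ratio of −0.15 between the summed means. A pseudocount of 1 normalized read and centring on the median miRNA left 4 members higher. The log2 fold change of bta-miR-30b-3p stayed positive, with an adjusted p above 0.05, in every alternative run: from 0.41 to 0.52 (adjusted p from limma 0.221 to 0.335) upon leaving out 1 library at a time, and the difference in normalized reads from 8.90 to 10.8. In the other fits its adjusted p from limma was 0.124 to 0.439. The number of called miRNAs, 5 of 143, was 3 of 114 with a chance limit of 0.001, 15 of 517 with no minimum mean and 17 of 206 when means up to 400 were added, a choice made after seeing the data that turned 1 higher and 4 lower into 11 higher and 6 lower. Without 1 library it ran from 2 to 12, with 2 without the RSV library of size factor 1.54 or the DMSO libraries of 0.922 or 0.823, and 12 without the RSV library of 0.935. The share of miRNAs past 1.2-fold was 52.0% with no minimum mean and 26.2% with a minimum of 100. No paired analysis was possible because the group mean columns and the recovered libraries carry no replicate numbers. For the 6 abundant members the deposited group means do not give the spread between libraries, and per-sample miRNA values of the paper's supplement were not used here.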
